A study of Mus musculus with 6 samples.

Results

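The genes described here build, mark, protect and cut meiotic cohesion. The list named 10 mouse genes: the cohesin subunits Rec8, Smc1b, Smc1a, Smc3 and Stag3, the chromosome axis genes Sycp3 and Hormad1, the shugoshins Sgol1 and Sgol2, and Espl1, which encodes separase. They were found by their symbols among 10896 genes measured in mouse oocytes. Of the 10, 8 had a row, and Rec8 and Hormad1 had no row in the table used here.

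Cohesin is a ring of an SMC1 and an SMC3 protein closed by a kleisin, with a STAG protein bound to the kleisin, and it holds sister chromatids together. Meiotic cells add forms of their own: the kleisin REC8, the SMC1 protein SMC1B and the STAG protein STAG3. In the mouse oocyte, cohesin is loaded before birth and must keep chromatids together through the long arrest and growth until the meiotic divisions. Chromosome axes carrying SYCP3 and HORMAD1 form on cohesin in prophase. Separase opens the ring at each division by cutting the kleisin, and shugoshins bring a phosphatase to centromeres that keeps REC8 there uncut through the first division.

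Both groups held oocytes at the germinal vesicle stage, the fully grown stage before meiosis resumes, from (C57BL x CBA) F1 females, with 3 samples of 50 oocytes in each. The in vitro grown oocytes came from follicles freed with collagenase from the ovaries of 2 to 5 females aged 10 to 12 days and cultured on membrane inserts in MEM-alpha with 5% FBS, insulin, transferrin, selenium and 0.01 µg/ml FSH. The in vivo grown oocytes were released by needle from ovaries of females aged 7 to 11 weeks into M2 medium with dbcAMP. Culture and donor age changed together, so their parts in any difference below cannot be told apart. Separate cultures or animals are not stated for the 3 samples of either group, so p-values measure the spread between these samples only.

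The authors deposited a mean of normalised reads for each gene and group, and a PPEE, read here as the posterior probability that expression is equal in both groups. A gene was called where the PPEE was below 0.05. For 8850 genes, 6 of the listed genes among them, the whole reads of each library were worked back from the group means. The libraries are called A, B and C within each group, since nothing ties them to the sample numbers, and 3 values of a group always stand in the order A, B and C. They held between 1311901 and 1967420 such reads. Values recovered for means above 400, here those of Smc1a, Sgol1 and in vitro Sgol2, are less secure than those of lower means. The same holds for other genes below with such a mean in either group, among them Nipbl, Rad21, Wapal, Ncapd3, Ppp2r1b and Sycp2. In vitro library A was not clearly nearer to its own group than to the in vivo libraries. Chi-square per degree of freedom over genes was 14.3 and 7.03 between in vitro library A and in vitro libraries B and C, against 5.66 to 9.73 between in vitro library A and the in vivo libraries. In vitro libraries B and C were at 5.99 against each other and at 10.1 to 24.9 against the in vivo libraries. Pairs of in vivo libraries were at 4.54 to 5.83. In vitro library B lay farthest from the in vivo libraries, at 19.4 to 24.9. All 12 oocyte markers had a row, 4 with a higher and 8 with a lower mean in vitro (median log2 difference -0.20). Of them 2, Bmp15 and Kit, were called lower in vitro, where 8.31% of all genes were, and 0 were called higher. Of 15 granulosa and cumulus cell markers 8 had a row, of which 4 had a higher and 4 a lower mean in vitro. The PPEE called 2 of them, both higher in vitro, where 6.75% of all genes were: Fshr, the FSH receptor, and Inha, the inhibin alpha chain. Their means in the authors' deposited table were 12.4 in vitro and 2.45 in vivo for Fshr, and 96.6 in vitro and 28.9 in vivo for Inha. The remaining higher ones, Hsd17b1 and Cyp19a1 (log2 2.19 and 0.51 from the authors' deposited table), were not called. The lower ones were Cyp11a1, Nr5a2, Kitl and Gja1 (log2 -0.74, -0.34, -0.11 and -0.03 from the authors' deposited table), and none of these was called. The 8 markers summed to 355, 476 and 377 normalised reads in the in vitro libraries, against 299.9, 299 and 274 in the in vivo libraries. Amh and Foxl2 had no row, nor did any of 7 theca or stroma markers or 4 blood markers. The part of these markers in the results below was not tested.

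The start regions of the called genes are shown because 4 of the 5 held the letters CACGTG, the E-box that many basic helix-loop-helix factors recognise. The sequences come from RefSeq on build GRCm38.p6, from 250 bases before to 50 after the annotated start, and run 5′ to 3′ on the gene's strand with CACGTG in capitals.
Sycp3, chr10:88459337-88459636, plus strand: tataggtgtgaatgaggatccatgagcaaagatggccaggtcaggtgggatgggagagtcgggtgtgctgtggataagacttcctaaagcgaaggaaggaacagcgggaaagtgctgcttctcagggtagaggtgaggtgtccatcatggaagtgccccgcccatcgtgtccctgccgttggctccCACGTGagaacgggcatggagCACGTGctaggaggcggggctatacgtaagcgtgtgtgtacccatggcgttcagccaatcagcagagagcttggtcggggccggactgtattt
Sgol1, chr17:53689266-53689565, minus strand: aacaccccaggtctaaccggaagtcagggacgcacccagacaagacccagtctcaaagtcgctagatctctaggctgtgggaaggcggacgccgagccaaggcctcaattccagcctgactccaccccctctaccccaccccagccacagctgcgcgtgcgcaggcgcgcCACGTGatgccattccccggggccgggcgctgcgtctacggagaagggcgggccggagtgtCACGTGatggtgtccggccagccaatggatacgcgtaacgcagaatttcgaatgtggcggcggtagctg
Stag3, chr5:138280259-138280558, plus strand: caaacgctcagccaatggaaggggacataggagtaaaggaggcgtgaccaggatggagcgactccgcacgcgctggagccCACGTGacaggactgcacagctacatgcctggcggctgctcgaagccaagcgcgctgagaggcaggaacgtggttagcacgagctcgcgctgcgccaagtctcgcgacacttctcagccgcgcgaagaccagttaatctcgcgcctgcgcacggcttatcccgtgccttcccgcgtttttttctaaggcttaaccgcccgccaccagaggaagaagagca
Espl1, chr15:102296043-102296342, plus strand: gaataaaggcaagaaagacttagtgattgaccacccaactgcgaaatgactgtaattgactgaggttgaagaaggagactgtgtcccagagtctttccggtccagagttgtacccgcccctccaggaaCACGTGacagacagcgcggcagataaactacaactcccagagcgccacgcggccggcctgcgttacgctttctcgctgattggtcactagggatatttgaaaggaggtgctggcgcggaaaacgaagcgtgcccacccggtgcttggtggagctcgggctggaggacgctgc

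CACGTG reads the same on both strands, so a search of one strand finds every copy. It occurred in the start regions of 5 of the 10 genes, with 2 copies each in Sycp3, Sgol1 and Hormad1 and 1 each in Stag3 and Espl1. Among the start regions of 27025 RefSeq genes 7.24% held it, and 10.35% of the 8798 of them that are in the table did. TTCCCGC, searched on both strands, occurred in 6 of the 10 and in 8.85% of the genes of the table. TCTCGCGA, also searched on both strands, occurred in 2 of the 10, Smc1b and Stag3, and in 2.58% of the genes of the table. The motifs were chosen after the sequences were seen, and a match is a description of letters only. The called genes with CACGTG comprised 2 that were higher in vitro, Sycp3 and Sgol1, and 2 that were lower, Stag3 and Espl1. Sgol2, the called gene without the letters, lacked them in both of its listed start regions.

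By the PPEE of the authors' deposited table, Sycp3, Sgol2 and Sgol1, 3 of the 8 genes, were called higher in vitro, as were 6.75% of all genes. Stag3 and Espl1, 2 of the 8, were called lower, as were 8.31% of all genes, and the calls in either direction came to 15.1% of all genes. The ring subunits Smc3, Smc1a and Smc1b were not called. Of the 8 genes 4 had a higher and 4 a lower mean in vitro, and their median log2 difference of 0.06 lay next to the 0.02 of all genes. The list had no common direction. Its called genes spanned 3.58-fold lower to 2.47-fold higher by the means of the authors' deposited table. Values are relative to all reads of a library, so less of a transcript per oocyte and more of all other RNA cannot be told apart, nor can fewer cells of a type and less RNA per cell.

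**Figure D1:**
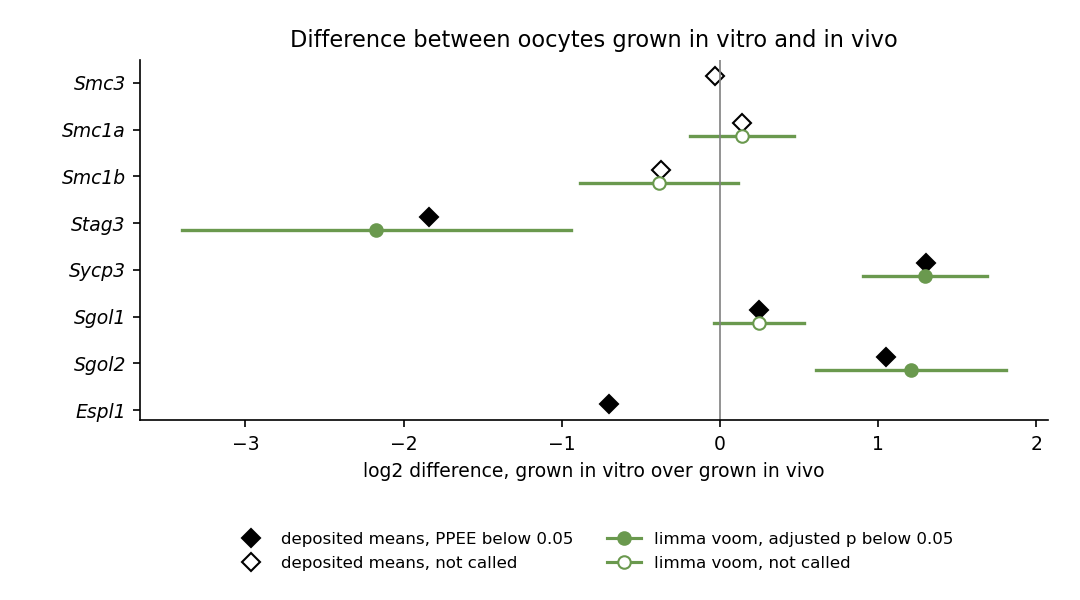
The log2 difference, in vitro over in vivo, is shown for each of the 8 genes from the deposited group means and, for 6 of them, from limma voom on recovered reads with its 95% interval. Sycp3 and Sgol2 lie above 1 and Stag3 below -1 on both measures, while the intervals of Smc1a, Smc1b and Sgol1 cross 0.

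Levels of different genes were compared per kilobase of the gene length in the table. In the authors' deposited table the median gene had 47.6 normalised reads per kilobase in vitro and 45.7 in vivo. Smc3 was the most abundant of the 8 genes, with 569.9 in vitro and 581 in vivo, at percentile 92.6 of all genes in both groups of the authors' deposited table. Stag3 was the least abundant, at 3.02 in vitro, percentile 4.62, and 10.8 in vivo, percentile 21.6, of the authors' deposited table. In vitro the order by deposited mean per kilobase was Smc3, Sycp3, Sgol1, Espl1, Smc1a, Sgol2, Smc1b and Stag3. In vivo it was Smc3, Espl1, Sgol1, Smc1a, Sycp3, Smc1b, Sgol2 and Stag3.

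Sycp3 and Espl1 changed places the most. Sycp3 had 301 normalised reads per kilobase in vitro, percentile 85.4, and 122 in vivo, percentile 70.5, in the authors' deposited table. Espl1 had 189 in vitro, percentile 78.1, and 307 in vivo, percentile 85.9, in the authors' deposited table. Among neighbours with recovered reads in both genes, the libraries of Smc1b (33.6 to 50.2 per kilobase) and Sgol2 (21.5 to 61.0) overlapped in vivo. The libraries of Sgol1 (185 to 216) and Smc1a (134 to 176) did not overlap in vitro, though Espl1, without recovered reads, lay between them by its deposited mean.

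**Figure D2:**
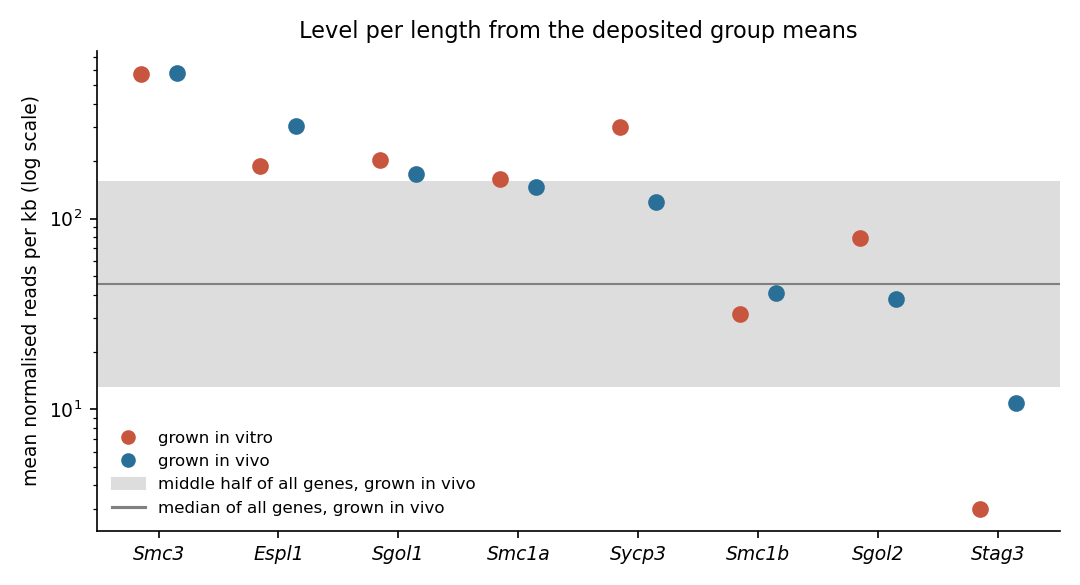
Group means per kilobase of gene length, on a log axis, are shown for the 8 genes in vitro and in vivo, with a grey band from the lower to the upper quartile of all genes in vivo (13.2 to 157) and a line at their median. Smc3 lies highest and Stag3 lowest in both groups.

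Smc3, which every cohesin ring needs, had nearly equal means in the authors' deposited table, 2764 normalised reads in vitro and 2820 in vivo (log2 difference -0.03, PPEE 0.984). Its means allowed several whole solutions, so no library values or interval are given. Smc1a, the SMC1 form of all dividing cells, had 685, 532 and 698 normalised reads in the in vitro libraries, against 527, 580.1 and 629 in the in vivo libraries. The groups overlapped. In vitro the mean was 638 ± 92.5 and in vivo 579 ± 51.0 (SD, n = 3 each). The limma voom log2 difference was 0.14 with a 95% interval of -0.19 to 0.47 (adjusted p = 0.562), which leaves room for changes up to 1.38-fold higher or 1.14-fold lower in vitro.

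Smc1b, the meiotic SMC1 form, had 142, 97.4 and 145 normalised reads in the in vitro libraries, against 204, 136 and 158 in the in vivo libraries. The highest in vitro libraries lay above the lowest in vivo one. The mean was 128 ± 26.6 in vitro and 166 ± 34.4 in vivo (SD, n = 3 each). Its log2 difference was -0.39, with a 95% interval of -0.89 to 0.11 and an adjusted p of 0.273 by limma voom. The PPEE of the authors' deposited table was 0.734.

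Stag3, the meiotic STAG subunit, was the scarcest of the genes and varied most between in vitro libraries relative to its mean. It had 28.5, 6.22 and 3.72 normalised reads in the in vitro libraries, from 31, 6 and 3 reads. In the in vivo libraries it had 41.2, 60.2 and 36.1, from 51, 68 and 32 reads. Every in vitro library lay below every in vivo library, and in vitro library A lay nearest to them. The mean was 12.8 ± 13.6 in vitro and 45.9 ± 12.7 in vivo (SD, n = 3 each).

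The difference in Stag3 was 4.50-fold lower in vitro by limma voom (log2 -2.17, 95% interval -3.40 to -0.94, adjusted p = 0.0351). In vitro the mean in the authors' deposited table was 3.58-fold lower, and its PPEE was 0.00674. Leaving out in vitro library A made it 8.33-fold lower (log2 -3.06, adjusted p = 0.00381 by limma voom). The call was kept without in vivo library C (adjusted p = 0.0444 by limma voom) and lost without any one of the other 4, where the adjusted p by limma voom was 0.120 without in vitro library B, 0.138 without in vitro library C, 0.0984 without in vivo library A and 0.117 without in vivo library B. The log2 difference stayed between -3.06 and -1.66. Over all genes too, fewer were called by limma voom with 1 library left out, apart from in vitro library A. Leaving out in vivo library A gave 8 calls higher in vitro and 17 lower, against 508 and 466 with all libraries.

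The other STAG genes, Stag1 and Stag2, serve the cohesin of all cells. Stag1 had 100.2, 189.7 and 175 normalised reads in the in vitro libraries, against 129, 109.8 and 76.8 in the in vivo libraries. Stag2 had 115, 117 and 149 in the in vitro libraries, against 205, 209 and 105 in the in vivo libraries. Both overlapped between groups, with log2 differences of 0.49 (95% interval -0.12 to 1.10) and -0.43 (95% interval -1.01 to 0.15) by limma voom. Neither was called.

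With Rec8 having no row, the kleisins measured were Rad21, which closes the cohesin of dividing body cells, and Rad21l, a second meiotic kleisin. Rad21 had 403, 682 and 705 normalised reads in the in vitro libraries, against 357, 213 and 304 in the in vivo libraries. The groups did not overlap, with 597 ± 168 in vitro and 291 ± 72.8 in vivo (SD, n = 3 each). By limma voom this was 2.00-fold higher in vitro (log2 1.00, 95% interval 0.48 to 1.53, adjusted p = 0.0276), while the PPEE of the authors' deposited table, 0.0751, did not call it. Rad21 was named after its values were seen. Rad21l was close to the low end of the table, with 6, 6 and 11 reads in the in vitro libraries and 7, 8 and 10 reads in the in vivo libraries.

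**Figure D3:**
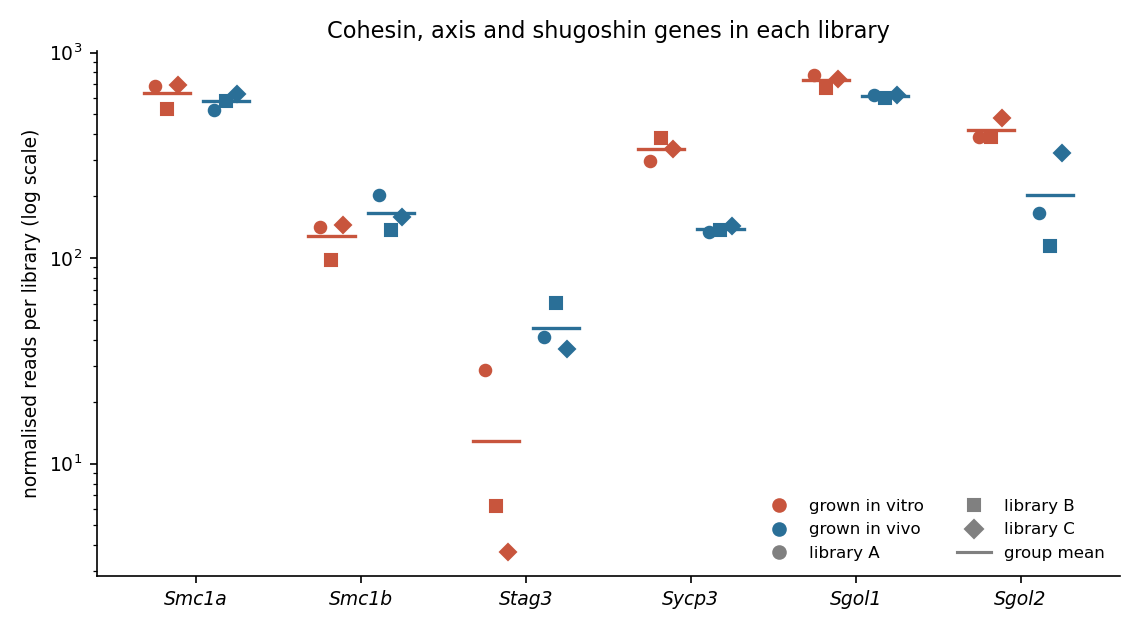
Normalised reads per library, on a log axis, are shown for the 6 genes with recovered reads, with in vitro left of in vivo. Each point is 1 library, its shape gives the library (A, B or C) and each horizontal line is a group mean. Sycp3, Sgol1 and Sgol2 are higher in every in vitro library and Stag3 is lower in each, while Smc1a and Smc1b overlap.

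Sycp3, the main protein of the chromosome axis, showed the difference that held best between libraries. It had 296, 386 and 339.9 normalised reads in the in vitro libraries, against 133, 136 and 143 in the in vivo libraries. The lowest in vitro library lay above the highest in vivo library by more than the whole range of either group. The mean was 340.5 ± 44.9 in vitro and 138 ± 5.15 in vivo (SD, n = 3 each). By limma voom Sycp3 was 2.45-fold higher in vitro (95% interval 1.87 to 3.22, log2 1.29, SE 0.18, adjusted p = 0.00576). The call was kept without any one of the 6 libraries, with adjusted p by limma voom between 0.000122 and 0.0482 and folds between 2.29 and 2.64. In the authors' deposited table its PPEE was listed as 0.

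Reads of Sycp3 may not all be its own. In the GENCODE annotation 660 of its 1264 exon bases, 52.2%, are also exon of Chpt1 on the opposite strand. Chpt1, which encodes a choline phosphotransferase of phospholipid synthesis, had no row in the table used here. The sources used here do not state whether reads were counted by strand, and without strand the reads of both genes in that stretch cannot be told apart.

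Sgol2, the shugoshin that oocytes need to keep centromeric cohesin through the first division, is listed under the current name Sgo2a. It had 388, 389 and 479 normalised reads in the in vitro libraries, against 167, 114 and 324 in the in vivo libraries. No library of one group reached the other, though in vivo library C lay nearer to the in vitro libraries than to the rest of its own group. The mean was 418 ± 52.3 in vitro and 202 ± 109 in vivo (SD, n = 3 each). By limma voom Sgol2 was 2.31-fold higher in vitro (95% interval 1.52 to 3.51, log2 1.21, SE 0.28, adjusted p = 0.0234), and the PPEE of the authors' deposited table was 0.00284.

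Leaving out a library moved the call of Sgol2 but not its direction. The call was lost without in vitro library C, in vivo library A or in vivo library B (adjusted p by limma voom 0.0989, 0.108 and 0.115). Without in vivo library C it was 2.98-fold higher in vitro, with an adjusted p of 0.00729 by limma voom. The neighbour Kctd18, read from the opposite strand, covers 2455 of the 7007 exon bases of Sgol2 in GENCODE, 35.0%, by a transcript that encodes no protein, and 0 bases by its coding transcripts. On the coding transcript of Sgol2 used for the search, 48.3% of the 50-base windows also occur in other genes, mostly in Kctd18, so without strand the reads of Sgol2 are uncertain in the same way as those of Sycp3. Kctd18 itself had 130.5, 133 and 141 normalised reads in the in vitro libraries, against 111, 139 and 129.9 in the in vivo libraries. Its log2 difference was 0.10 (95% interval -0.32 to 0.52, adjusted p = 0.760 by limma voom).

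Sgol1, the shugoshin that guards centromeric cohesin in mitosis, now named Sgo1, differed by little. It had 781, 669 and 747 normalised reads in the in vitro libraries, against 623, 604 and 621 in the in vivo libraries. All in vitro libraries lay above all in vivo libraries. The mean was 732 ± 57.7 in vitro and 616 ± 10.6 in vivo (SD, n = 3 each). The authors' deposited table gave a PPEE of 0.00799, which called it, at 1.19-fold higher in vitro. By limma voom it was not called (log2 0.25, 95% interval -0.04 to 0.53, adjusted p = 0.218).

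Gm4975 is a copy of Sgol2, now named Sgo2b, and 3.55% of its 50-base windows also occur in other genes, mostly in Sgol2. It had 165, 112 and 189.8 normalised reads in the in vitro libraries, against 142, 125 and 141 in the in vivo libraries, which overlapped. Its log2 difference was 0.16 (95% interval -0.33 to 0.64, adjusted p = 0.665 by limma voom).

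Espl1, the separase gene, ran the other way from the shugoshins. The authors' deposited table gave it 1251 normalised reads in vitro and 2034 in vivo, which is 1.63-fold lower in vitro, at a PPEE of 0.00549. Its means allowed several whole solutions, so no library values or interval are given. Securin, encoded by Pttg1 and the inhibitor that holds separase inactive, was given 4668 normalised reads in vitro and 3202 in vivo by the authors' deposited table. Its PPEE of 0.883 in the authors' deposited table did not call it.

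By limma voom 2 of the 6 genes with recovered reads were called higher in vitro, Sycp3 and Sgol2, where 5.74% of the 8850 genes fitted were, and 1 was called lower, Stag3, where 5.27% were (11.0% in either direction). The libraries of 3 genes lay wholly higher in vitro (Sycp3, Sgol1 and Sgol2) and those of 1 wholly lower (Stag3), against 18.8% and 16.4% of the genes fitted, or 35.1% in either direction. Absence of a call in Smc1a, Smc1b and Sgol1 does not show that their levels were the same.

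Shares within a library, taken per length, compare related genes without regard to scaling between libraries. Smc1b made up 16.9%, 15.2% and 16.9% of Smc1a and Smc1b in the in vitro libraries, against 27.5%, 18.7% and 19.8% in the in vivo libraries. All in vitro shares were the smaller ones, 16.3 ± 0.960% against 22.0 ± 4.78% in vivo (SD, n = 3 each). The exact 2-sided permutation p was 0.1, the smallest that 3 against 3 libraries allow, and 0.2 after Benjamini-Hochberg adjustment over the 4 shares tested.

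Stag3 made up 15.6%, 2.75% and 1.58% of Stag1, Stag2 and Stag3 in the in vitro libraries, against 14.7%, 20.7% and 21.6% in the in vivo libraries. In vitro library A thus lay among the in vivo libraries on this share, which its Stag3 level alone did not show. The means were 6.63 ± 7.75% in vitro and 19.0 ± 3.80% in vivo (SD, n = 3 each), with an exact permutation p of 0.2 and an adjusted p of 0.2.

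Sgol2 made up 25.2%, 28.3% and 30.3% of Sgol1 and Sgol2 in the in vitro libraries, against 15.4%, 11.4% and 26.2% in the in vivo libraries. In vivo library C overlapped with the in vitro libraries, and the exact permutation p was 0.2 (adjusted 0.2). Gm4975 made up 37.7%, 29.0% and 36.0% of itself and Sgol2 in the in vitro libraries, against 54.8%, 60.8% and 38.2% in the in vivo libraries. All in vitro shares were smaller, with an exact permutation p of 0.1 (adjusted 0.2).

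**Figure D4:**
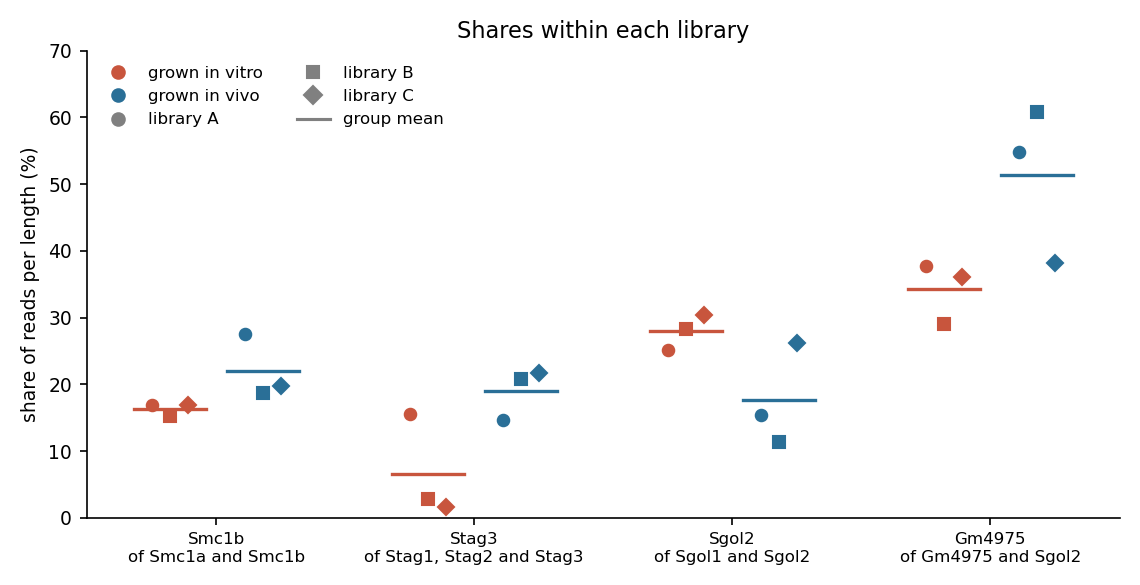
Each point is the share of 1 library, in percent and per length, for Smc1b among the SMC1 genes, Stag3 among the STAG genes, Sgol2 among the shugoshins and Gm4975 against Sgol2, with in vitro left of in vivo and a horizontal line at each group mean. The shares of Smc1b and Gm4975 are smaller in every in vitro library, and in vitro library A lies with the in vivo libraries for Stag3.

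Of 56 other genes of cohesion and meiotic chromosomes 52 had a row. By the PPEE of the authors' deposited table, higher values in vitro were called in 4 of the 52 genes and lower values in 5, next to 6.75% and 8.31% of all genes, and 43 were not called. These shares lie near those of all genes, and the median log2 difference was -0.02. None of 7 genes of the axis and synaptonemal complex and none of 9 recombination genes was called, where 15.1% of all genes were called, which in lists this short is no result about them. Limma voom on the 5 and 8 of them with recovered reads also called none. An unadjusted p below 0.05 was reached by Sycp2 (log2 -0.36, p = 0.0143, adjusted p = 0.0792) and Msh4 (log2 -0.44, p = 0.0133, adjusted p = 0.0770), whose PPEE in the authors' deposited table was 1.00 in both. They were named after their values were seen.

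The 26 genes of cohesin and its regulators held 3 of the higher and 4 of the lower calls. Of all genes 6.75% and 8.31% were called. Of the 26, 12 belonged to the phosphatase that shugoshins bring and its recruiters, and held 1 higher and 3 lower calls. Nipbl, which loads cohesin onto chromosomes, had 675, 956 and 832 normalised reads in the in vitro libraries, against 465, 549 and 490.2 in the in vivo libraries. The groups did not overlap, and Nipbl was 1.62-fold higher in vitro by limma voom (95% interval 1.27 to 2.05, adjusted p = 0.0232). Cdca5, which encodes sororin, the protein that keeps cohesin from being released, had 3026 normalised reads in vitro and 2444 in vivo in the authors' deposited table, 1.24-fold higher in vitro. Esco2, an acetyltransferase that locks the ring at replication, had 3176 in vitro and 3992 in vivo in the authors' deposited table, 1.26-fold lower in vitro.

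Subunits of the phosphatase PP2A, which shugoshins bring to centromeres, moved in both directions. Ppp2r1a and Ppp2r1b, its scaffold subunits, had means 1.79-fold and 1.44-fold lower in vitro, from the authors' deposited table. By limma voom Ppp2r1b was not called (log2 -0.53, adjusted p = 0.0515), and Ppp2r1a had no recovered reads. Ppp2r5b, a regulatory subunit of the B56 family that shugoshins bind, was low throughout, with 29.4, 41.5 and 40.9 normalised reads in the in vitro libraries, against 12.1, 4.43 and 16.9 in the in vivo libraries. It was 3.71-fold higher in vitro by limma voom (95% interval 1.83 to 7.51, adjusted p = 0.0295). Of the exon bases of Ppp2r1b 22.2% over all transcripts, and 27.3% over coding transcripts, overlap the gene Sik2 on the opposite strand. Those transcripts hold 6449 and 5240 exon bases, against a deposited gene length of 3623, so the share of counted bases is not known. The reads of Ppp2r1b are therefore uncertain in the same way as those of Sycp3. The kinase gene Bub1, whose product marks centromeric chromatin for shugoshin, was 1.42-fold lower in vitro by the means of the authors' deposited table.

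With recovered reads for 18 genes of cohesin and its regulators, limma voom called 5 higher in vitro and 0 lower. Of the 8850 genes fitted, it called 5.74% and 5.27%. Called were 1 of 4 subunits, 1 of 1 loader, 1 of 4 release and acetylation genes and 2 of 9 phosphatase and recruiter genes. The 5 genes were Nipbl, Ppp2r5b, Rad21, Ppp2ca and Wapal. The PPEE did not call Rad21, Ppp2ca and Wapal, which were named after their values were seen. The list itself was chosen with earlier results known. Ppp2ca, a catalytic subunit of PP2A, had 118, 316 and 244 normalised reads in the in vitro libraries, against 72.8, 74.4 and 73.4 in the in vivo libraries (2.78-fold higher, adjusted p = 0.0238). A noncoding gene on the opposite strand covers 2985 of its 7490 exon bases over all transcripts, 39.9%. These need not be the bases in which its reads were counted. Wapal, which opens the ring to release cohesin, had 353, 660.3 and 494 in the in vitro libraries, against 255, 226 and 325 in the in vivo libraries (1.83-fold higher, adjusted p = 0.0351). In all 5 genes in vitro library A was the lowest of its group. Whether these calls hold with a library left out is not given here.

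Of 10 genes of condensin and of the SMC5/6 complex, relatives of cohesin, 2 had a higher and 8 a lower mean in vitro. Their median log2 difference was -0.29. The PPEE of the authors' deposited table called 1 higher and 1 lower, next to 6.75% and 8.31% of all genes. Ncapd3, a condensin II subunit, had 423, 200.1 and 236 normalised reads in the in vitro libraries, against 648, 764 and 519.5 in the in vivo libraries. The groups did not overlap, and it was 2.33-fold lower in vitro by limma voom (log2 -1.22, adjusted p = 0.0157). Smc6 was 1.29-fold higher in vitro by the means of the authors' deposited table, at a PPEE of 0.0174.

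**Figure D5:**
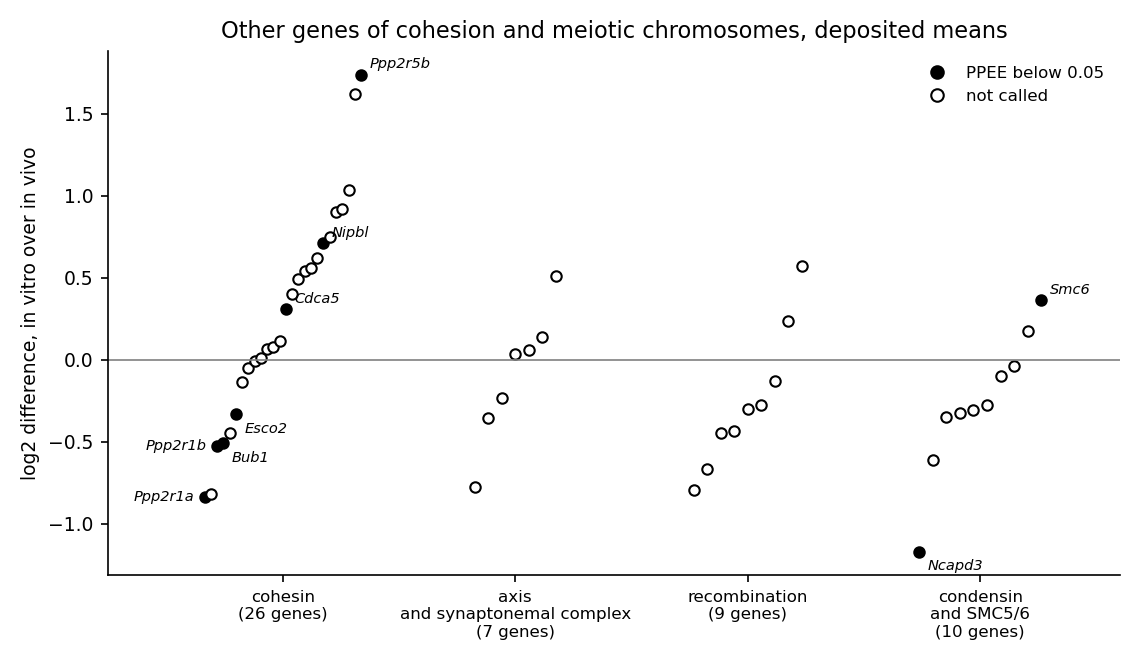
The log2 difference of the deposited means, in vitro over in vivo, is shown for each of the 52 other genes, ordered by value within 4 lists, with filled points for a PPEE below 0.05. The named points are the 4 genes with calls higher in vitro and the 5 with calls lower.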

How the data were processed

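RNA was sequenced from 6 samples of 50 oocytes, 3 grown in vitro and 3 in vivo. Per the labels, cDNA was made from 10 ng of total RNA with the SMARTer Ultra Low Input kit, and the submitters' processing notes name BWA, without a version, and build mm9. The authors deposited a signal, the group mean of normalised reads per gene, with scale factors not given in the sources used here. The authors also deposited a log2 ratio with in vivo on top, made with 0.599 added to both means, a score named PPEE between 0 and 1, and a gene length. The tool behind the PPEE is not stated, and it should not be taken for a p-value. The deposited ratio was recomputed to within 0.000190, and folds here were taken from the means with no constant added.

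The table holds no values per sample, so no count test of the planned kind could be run. A group mean is a sum over 3 libraries of whole reads times 1 step per library. The steps were found from low means, and each mean up to 1000 was solved for whole reads to 10 significant digits. One solution was found for 94.3% of in vitro and 93.9% of in vivo means, and 8850 genes had one in both groups. Shifted values without a true solution were solved once in 0% of cases up to a mean of 100, 2.67% in vitro and 3.67% in vivo up to 200, 10.2% and 15.8% up to 400, 33.0% and 43.8% up to 700, and 52.9% and 46.9% up to 1000, in vitro and in vivo in this order. In vitro libraries A, B and C had size factors of 1.09, 0.965 and 0.806, and the in vivo ones 1.24, 1.13 and 0.885. Reads carry no molecular identifiers. No 2 libraries agreed within sampling noise. All 8850 genes were fitted with limma 3.58.1 (voom, 2-sided, Benjamini-Hochberg adjusted p below 0.05). The recovery and the fit were tested on simulated data. Shares were compared with an exact permutation test.

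Shared exons and 50-base windows came from GENCODE vM21 on GRCm38, and start regions from RefSeq, which had all 10 genes. One start region per gene, the first listed, was counted. Named were all 10 genes, and other genes of the list where called by PPEE; the others named, such as Stag1, Stag2, Rad21, Rad21l and Pttg1, are exceptions chosen after the values were seen. The genes and lists were chosen with earlier results of these data known. Alternatives were another PPEE threshold, a minimum fold, a filter on low means, pseudocounts, centring, TMM factors, limma trend, leaving out each library and, added after seeing the data, means up to 200 only and the counts of genes called by limma voom under these settings.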

Additional observations from a re-analysis of the deposited data

How the results depend on the processing

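Of 104 alternative values of a gene's difference, 96 kept their direction and their side of the threshold. Another 8 kept their direction but lost the call, and none was reversed. Some of the 96 could not have changed side, as described below. Of 30 alternative counts of called genes 21 stayed within 1.5 times, though not all were equal, and 9 moved further. With a minimum of 1.5-fold, Sgol1 (log2 0.25) was no longer called, and the other genes held 2 calls in each direction. Without each library in turn, the log2 difference by limma voom lay between -3.06 and -1.66 for Stag3, between 0.87 and 1.58 for Sgol2, between 1.20 and 1.40 for Sycp3, between -0.52 and -0.20 for Smc1b, between 0.07 and 0.27 for Smc1a and between 0.19 and 0.31 for Sgol1. Of the 6 genes, 1 to 2 then had a call higher in vitro and 0 to 1 a call lower. Stag3 kept its call in 2, Sgol2 in 3 and Sycp3 in 6 of these 6 fits. Such fits are not given for the other genes called by limma voom, Nipbl, Rad21, Ppp2ca, Wapal, Ppp2r5b and Ncapd3. Their calls should not be taken as firmer than those of Stag3 and Sgol2. A PPEE below 0.01, TMM factors, limma trend and, in limma voom, a mean of at least 10 changed no call of the listed genes. Means up to 200 alone changed none of the genes that remained. For the deposited means, centring, pseudocounts of 1 and 5 and the filter on low means left the PPEE as it was. They could therefore not change a call, and centring and pseudocounts reversed no direction. TMM factors took the median log2 difference of all genes to 0.00, against 0.04. Leaving out in vitro library C left 17 calls higher in vitro and 19 lower over all genes.

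No paired analysis was possible because the columns carry no replicate numbers and the recovered libraries cannot be tied to those of the labels. Depth limits Stag3 and Rad21l, whose in vitro libraries held 3 to 31 reads. It also limits Ppp2r5b, whose in vivo libraries held 15, 5 and 15 reads. Intervals cover the spread between 3 libraries only. Smc3 and Espl1 have no library values.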
